A study of Mus musculus with 4 samples.

Results

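The deposited pSTAT3-Y705 peak table named a LINE or a SINE at 199 of its 1998 distinct peaks on chromosomes 1 to 19 and X, 27 in WT (336 peaks in all), 62 in CML (531) and 110 in CML-TKI (1131). Members were chosen by the repeat class that the table gave each peak, without chromosome Y and without 9 genes (Sfi1, Pisd-ps1, Pisd-ps3, Mir101c, Lrrc4c, Gm15319, Slc7a15, Vmn2r121 and Rn45s), several of which are known multi-copy loci. Each peak was counted once per library, since the table repeated some peaks up to 4 times. The whole series held 3218 distinct peaks. Over the members, overlapping peaks of all libraries merged into 132 loci, at which the table named 114 nearest genes.

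Chromatin from Lin-Sca1+cKit+ (LSK) bone marrow cells of C57BL/6 mice, which include the hematopoietic stem cells and their early progeny, was immunoprecipitated with an antibody against STAT3 phosphorylated at Y705 and sequenced. The WT library was made from wild-type mice without treatment. The CML library was made from untreated mice of the double transgenic BCR-ABL×SCL-tTA model, in which BCR-ABL is expressed in stem cells once tetracycline is withdrawn. CML-TKI is the same model treated with the BCR-ABL kinase inhibitor imatinib (IM), for which the labels give 200 mg/kg for 4 weeks in one place and 400 mg/kg for 30 days in another, on alternate days in both. The number of mice behind each library is not given in the labels, and an IgG input was not analysed here. With 1 library a group there is no replicate spread, and WT, CML and CML-TKI were compared without a test. The table held positions and annotations without read counts or enrichment, and the sequencing depth is unknown.

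LINEs and SINEs are retrotransposons, which spread by copying their RNA back into DNA. LINE-1 (L1) encodes its own reverse transcriptase, and in the mouse its youngest families (names beginning L1Md, L1_Mus or L1_Mm, called young L1 here) include copies that can still move. The Lx and related families (rodent L1) arose in rodents, and L1M and L2 date from earlier mammals. The old LINE class used here holds L1M, L2 and also MusHAL1, which was placed there by default and whose age was not checked. SINEs encode no protein and use the L1 machinery. Mouse B1 derives from the 7SL RNA of the signal recognition particle, B2 (with its variants B3 and B3A) from a tRNA, and B4 joins a tRNA-derived and a B1 part, while MIR is an ancient family. SINEs gather in gene-rich DNA and L1 in gene-poor DNA. STAT3 is phosphorylated at Y705 downstream of cytokine receptors, enters the nucleus as a dimer and binds DNA near genes of cytokine response, survival and metabolism.

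LINEs and SINEs made up a similar part of each peak list. They were 8.04% of WT peaks (exact 95% interval 5.36 to 11.5), 11.7% of CML peaks (9.07 to 14.7) and 9.73% of CML-TKI peaks (8.06 to 11.6), and the 3 intervals overlapped. These intervals are exact Clopper-Pearson ones, cover counting error over peaks only, and are too narrow where peaks of a site overlap. Merging such peaks within a library left 23 WT, 61 CML and 91 CML-TKI regions. WT members comprised 12 LINE and 15 SINE peaks, CML members 35 and 27, and CML-TKI members 55 and 55. The LINE share was therefore 56.5% in CML (43.3 to 69.0), 50% in CML-TKI (40.3 to 59.7) and 44.4% in WT (25.5 to 64.7), a spread that lies within the counting error. The table attached repeat names to intronic and intergenic peaks only (2828 of 2828 entries with a repeat name), so no member could be a promoter or exon peak. Intronic members numbered 5 (WT), 17 (CML) and 29 (CML-TKI).

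The families differed more between libraries than the LINE and SINE totals did. Young L1 gave 2 WT, 18 CML and 23 CML-TKI peaks. This was 29.0% of the CML members (18.2 to 41.9), 20.9% of the CML-TKI members (13.7 to 29.7) and 7.41% of the WT members (0.910 to 24.3). Old LINE peaks went the other way, with 7 WT peaks (25.9%), 6 CML peaks (9.68%) and 12 CML-TKI peaks (10.9%). B1 gave 10 WT peaks (37.0%, 19.4 to 57.6), 10 CML peaks (16.1%, 8.02 to 27.7) and 20 CML-TKI peaks (18.2%, 11.5 to 26.7). For each of these classes the interval of WT, from 27 peaks, overlapped those of CML and CML-TKI. Overlap of intervals does not decide whether shares differ, and peaks of 1 library are not replicates, so a difference between libraries was not tested. The rule left out 97 WT, 46 CML and 151 CML-TKI LINE or SINE peaks. The shares of these classes were not computed with those peaks included. As merged regions the order stayed the same, with young L1 in 2 WT, 18 CML and 20 CML-TKI regions (8.70%, 29.5% and 22.0%). Rodent L1 (3, 11 and 20 peaks), B2 (4, 13 and 24) and B4 (1, 3 and 8) took more even shares, and ID (0, 0 and 1) and MIR (0, 1 and 2) were rare.

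**Figure D1:**
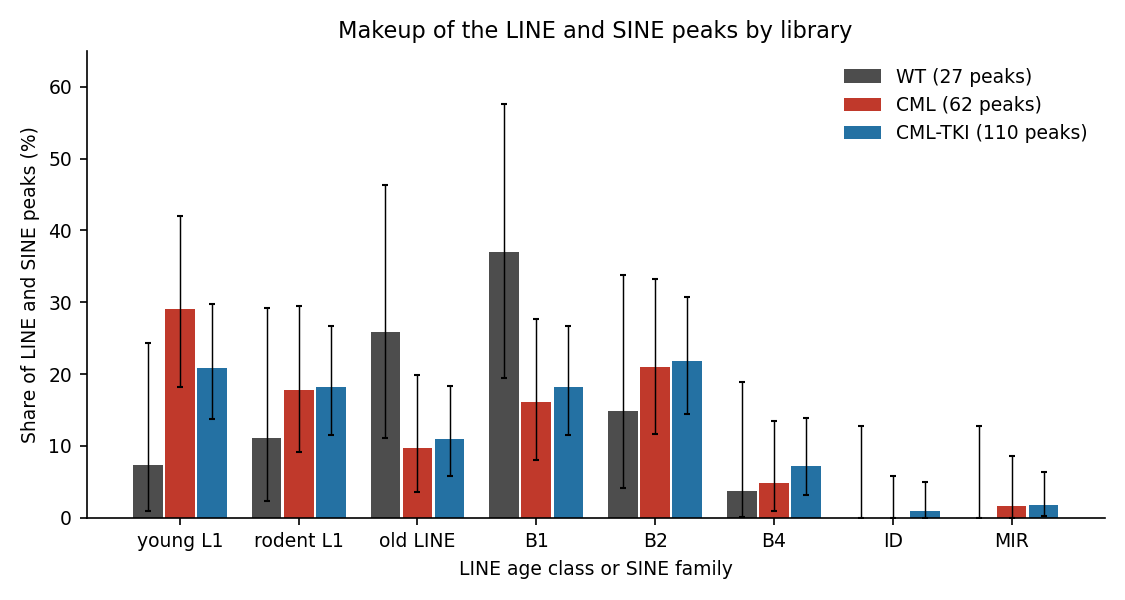
Share of each library's LINE and SINE peaks (y axis, percent) in each LINE age class or SINE family (x axis), with exact 95% intervals for counting error as error bars. From left to right in each set (WT, CML, CML-TKI), young L1 was 7.41%, 29.0% and 20.9%, B1 was 37.0%, 16.1% and 18.2%, and the WT interval overlaps the others in each class.

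The members carried 51 subfamily names, 19 of them in the WT, 33 in the CML and 44 in the CML-TKI list, and 5 subfamilies reached 5 peaks in a library. B3, an old variant of the B2 family, was the most frequent, with 1 WT, 8 CML and 14 CML-TKI peaks, the CML peaks in 8 separate regions. B1_Mus1 gave 7, 4 and 8 peaks, which fell on 4 regions in each library. L1Md_F2 had 0 WT, 4 CML and 5 CML-TKI peaks, L1Md_A had 1, 2 and 5, and B3A had 2, 0 and 5. The L1Md_F2 count of 0 in WT holds for the members only. Near Gm3376 on chromosome Y, which the rule leaves out, L1Md_F2 had 11 WT, 6 CML and 17 CML-TKI peaks. Some low counts were particular to a list but too small to be read further. L1_Mus2 was named at 4 CML peaks (near Dmd, Rbfox1, Ppp1r2-ps9 and 1700022A22Rik) and B2_Mm1a at 3 CML peaks (near Plac8, Gtf2i and Parp16), with 0 of either in WT and CML-TKI. Both were chosen for mention after their values were seen, and a count of 0 among 27 or 110 peaks limits only the peaks listed.

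Most loci were listed in a single library, at a share near that of all peaks. Of 132 loci, 94 (71.2%, 62.7 to 78.8) had a peak in 1 library, against 68.2% of the 1178 loci that all peaks under the rule form. Of the 94, 54 were listed after IM, 37 in untreated CML and 3 in WT. Over all peaks the 803 single-library loci split much alike, with 497 after IM, 297 in untreated CML and 9 in WT. CML and CML-TKI shared 17 loci, WT and CML-TKI shared 10, WT and CML alone shared 0, and 11 of 132 had a peak in all 3 libraries. Of the 1178 loci of all peaks, 106 were in all 3, and loci of pairs of libraries were not counted there. By class, young L1 loci were in 1 library at 27 of 33 (81.8%, 64.5 to 93.0) and rodent L1 loci at 24 of 28 (85.7%, 67.3 to 96.0). Old LINE loci were at 6 of 12 (50%, 21.1 to 78.9) and B1 loci at 8 of 17 (47.1%, 23.0 to 72.2), and 6 of the 17 B1 loci were in all 3 libraries. The old LINE count includes MusHAL1, which had 1 peak in each library, each at a locus of that library alone. B2 loci resembled L1, with 25 of 32 (78.1%, 60.0 to 90.7) in 1 library. Without the 4 genes that had 3 or more CML-TKI regions, which removed 16 loci, young L1 stood at 23 of 27, rodent L1 at 19 of 23, old LINE at 6 of 12 and B1 at 7 of 16. The intervals of young and rodent L1 overlapped those of old LINE and B1. Loci are not replicates and the peak lists differ in length, so these counts describe the lists and carry no test.

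**Figure D2:**
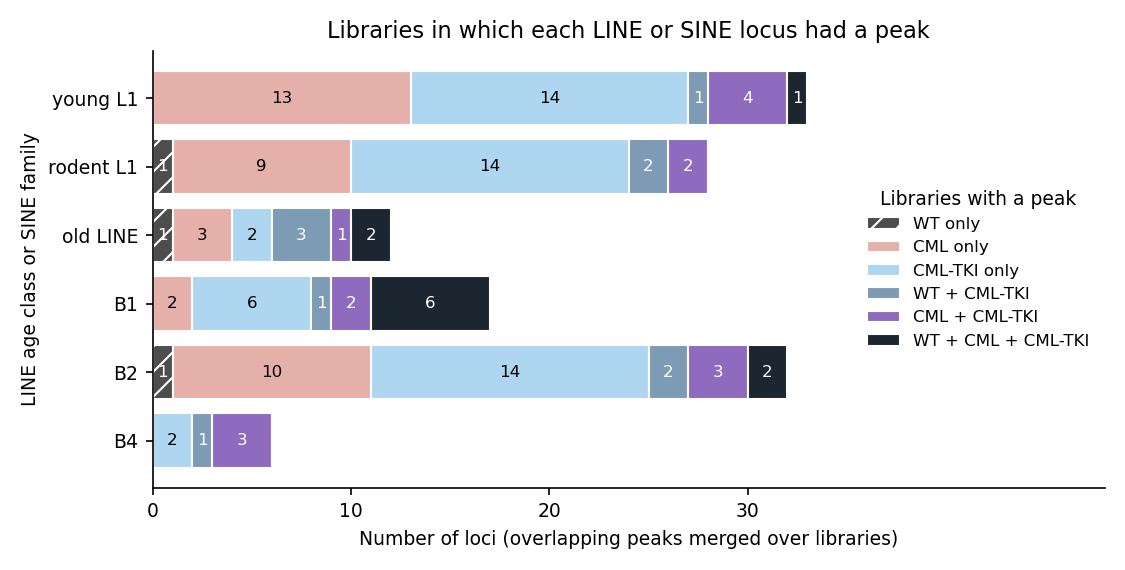
Number of merged loci (x axis) in each LINE age class or SINE family (y axis), coloured by the libraries that had a peak there, with the count printed in each segment. In 1 library were 27 of 33 young L1 loci and 24 of 28 rodent L1 loci, while 6 of 17 B1 loci were in all 3.

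Read against all peaks under the same rule, the members as a whole were shared about as often as other peaks. In WT, 14 of 27 members (51.9%, 31.9 to 71.3) overlapped a CML peak, against 47.3% of all WT peaks, and 24 of 27 (88.9%, 70.8 to 97.6) overlapped a CML-TKI peak, against 96.7%. In no other library were 3 of 27 (11.1%, 2.35 to 29.2), against 2.98%. In CML, 10 of 62 (16.1%, 8.02 to 27.7) overlapped WT, against 20.5%, and 25 of 62 (40.3%, 28.1 to 53.6) overlapped CML-TKI, against 43.9%. The CML list alone held 37 of 62 (59.7%, 46.4 to 71.9), against 55.9%. In CML-TKI, 32 of 110 (29.1%, 20.8 to 38.5) overlapped WT, against 35.9%, and 39 of 110 (35.5%, 26.6 to 45.1) overlapped CML, against 33%. The CML-TKI list alone held 56 of 110 (50.9%, 41.2 to 60.6), against 48.6%. All 9 backgrounds lay inside the members' intervals.

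The shares of LINE and SINE peaks were also read separately, against the 55.9% of all CML peaks and 48.6% of all CML-TKI peaks that overlapped no other library. In CML, 25 of 35 LINE peaks (71.4%, 53.7 to 85.4) overlapped no other library, against 12 of 27 SINE peaks (44.4%, 25.5 to 64.7). In CML-TKI these were 31 of 55 (56.4%, 42.3 to 69.7) and 25 of 55 (45.5%, 32.0 to 59.4). Overlap of CML with CML-TKI was 10 of 35 for LINEs (28.6%) and 15 of 27 for SINEs (55.6%). The LINE and SINE intervals overlapped in each of these pairs, and the intervals of unshared LINE and SINE peaks held the share of all peaks in both libraries. Of intronic and intergenic peaks outside LINEs and SINEs, 50.6% in CML and 46.6% in CML-TKI overlapped no other library. The CML LINE interval did not hold this share, while the CML SINE interval and the CML-TKI intervals did. Of such CML peaks, 49.1% overlapped CML-TKI, outside the LINE interval (14.6 to 46.3) and inside the SINE interval (35.3 to 74.5). Overlap of intervals does not decide whether the classes differ, which was not tested.

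**Figure D3:**
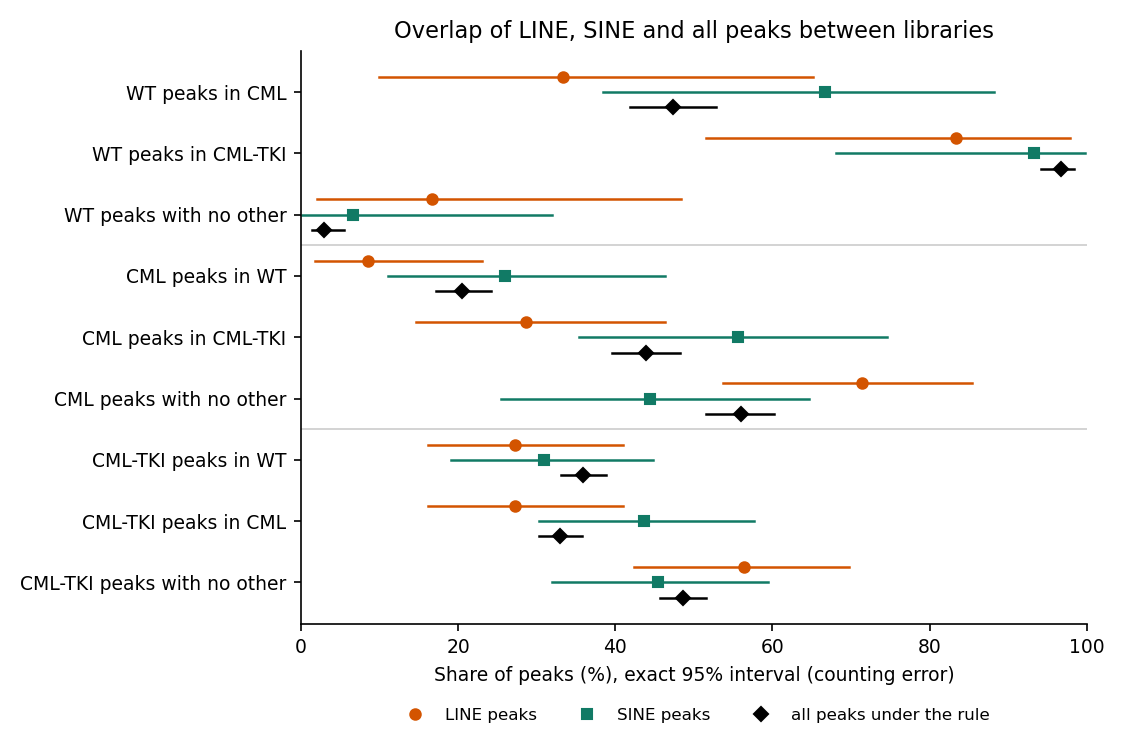
Share of peaks (x axis, percent) of each library that overlapped a peak of another library by at least 1 bp, or of no other library (y axis), for LINE peaks, SINE peaks and all peaks under the same rule. Lines are exact 95% intervals for counting error, and in CML the peaks with no partner were 71.4% of LINE, 44.4% of SINE and 55.9% of all peaks.

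Shared members often had the same ends to the base. Of the 25 WT members with full ends, 11 were listed with identical ends in CML-TKI and 3 in CML, and of the 59 CML members with full ends 18 were listed with identical ends in CML-TKI. Over all peaks under the rule these counts were 143 of 304, 41 of 304 and 165 of 518. Identical ends are thus a feature of the table, in which 47.0% of WT peaks and 44.0% of WT members were repeated in CML-TKI base for base, and whether identical ends came from separate peak calls was not tested.

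Width is the sole measure of size in the table, and the 11 loci of all 3 libraries had the highest median width of the 6 sharing patterns. Positions are given as mm9, a build that the processing notes name, because peak ends on 6 chromosomes pass the GRCm38 (mm10) lengths, and mm9 lengths were not checked. The widest peak of such a locus had a median of 362 bp (146 to 576), against 300.5 bp at the 2 WT-only loci with known ends, 152 bp at CML-only loci, 170 bp at CML-TKI-only loci, 164 bp at WT and CML-TKI loci and 209 bp at CML and CML-TKI loci. At 300 bp or wider were 7 of the 11, against 6 of the 93 single-library loci with known ends. A wide peak overlaps others more readily, and a locus listed more often has more peaks to take the widest from, so their part in this difference was not tested. Widths by sharing pattern were not read over other loci, so whether the difference is particular to LINE and SINE loci was not tested either.

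**Figure D4:**
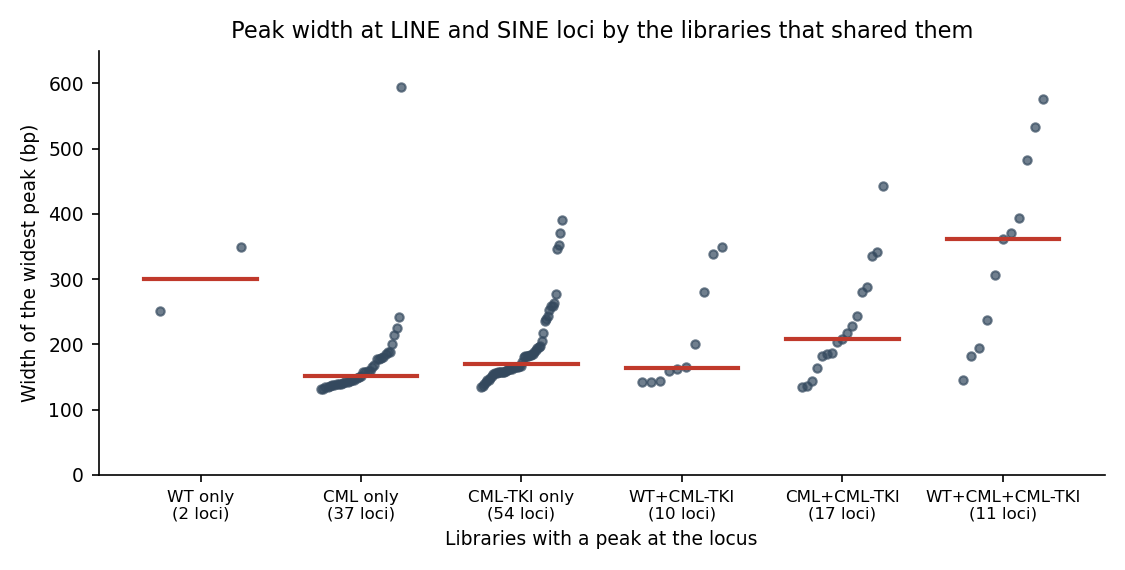
Width of the widest peak (y axis, bp) at each LINE or SINE locus (points), by the libraries with a peak there (x axis), with red lines at the medians. The 11 loci in all libraries have a median of 362 bp, the 37 CML-only loci 152 bp and the 54 CML-TKI-only loci 170 bp. A WT-only locus without known ends is not drawn.

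B1_Mus1 accounted for 4 of these 11 loci. The widest lay at mm9 chr10:21862217-21862793 in the only intron of E030030I06Rik, 6.57 kb from its transcription start site (TSS). Its widest WT, CML and CML-TKI peaks were 567, 559 and 576 bp, so the libraries hardly differed. The locus at mm9 chr15:74915982-74916464 was intergenic, 26.1 to 26.2 kb from the TSS of Ly6c2, which encodes the Ly6C surface antigen of monocytes. Its widest peak was 482 bp in both WT and CML-TKI and 451 bp in CML. The locus at mm9 chr17:35395247-35395617 lay 4.55 kb upstream of H2-D1, a classical MHC class I heavy chain gene, and its widest WT, CML and CML-TKI peaks were 370, 249 and 333 bp. There the CML peak was the narrowest, and it had the same ends as a second CML-TKI peak of 249 bp. The last lay at mm9 chr10:79635935-79636172 in intron 1 of 1600002K03Rik, for which the reference table uses Fam174c. At 364 bp from the TSS it was the sole member locus within 1 kb of one, with identical 237 bp peaks in WT and CML, while the CML-TKI peak there was annotated as intron without a repeat.

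The other SINE loci of all libraries were at 4 genes. At Ddit4, which encodes the stress-induced mTORC1 inhibitor REDD1, a B1_Mur1 peak of 146 bp at mm9 chr10:59406820-59406966 had identical ends in WT, CML and CML-TKI, 7.63 kb downstream of the TSS. A B1_Mur4 locus at mm9 chr11:51948259-51948441 lay 8.09 kb from the miRNA gene Mir3061, with peaks of 182 bp in WT and 158 bp in CML and CML-TKI. At Eif4enif1, which encodes the eIF4E transporter of translational repression, a B3 peak of 307 bp at mm9 chr11:3098843-3099150 was listed with the same ends in CML and CML-TKI, 3.36 kb upstream. The WT peak there was named as an LTR, and CML-TKI also had 2 overlapping peaks of another annotation. At P4ha2, a collagen prolyl 4-hydroxylase subunit gene, a B2_Mm1t peak 39.3 to 39.4 kb from the TSS was 362 bp in WT and 153 bp in CML-TKI, and the CML peak was named as a simple repeat. WT and CML-TKI each also had 1 peak of another annotation there, beside the B2_Mm1t peak. These last loci show that the repeat name of a locus could change with the ends of the peak, between libraries or within 1 library. At 7 of 132 loci a library had a peak under another annotation.

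Of the LINE loci, 3 were in all libraries. An L1M2 locus at mm9 chr19:44405555-44406088 lay 1.96 to 2.01 kb upstream of Scd4, which encodes a stearoyl-CoA desaturase of fatty acid synthesis, with widest WT, CML and CML-TKI peaks of 533, 416 and 455 bp. It was the LINE locus nearest to a TSS and the widest LINE locus. An L2b locus at mm9 chrX:140472451-140472844, 104.8 kb upstream of the neuronal microtubule gene Dcx, had peaks of 393 bp in WT and 193 bp in CML, and the CML-TKI entry took the CML ends. An L1Md_A locus near the start of chromosome 1 at mm9 chr1:3033124-3033319, 628.3 kb from Xkr4, was the single young L1 in every library, at 152 bp in WT and CML and 195 bp in CML-TKI.

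The RNA of Mir3061, and of Mir23a, which had a B3A peak of 158 bp 3.87 kb upstream in CML-TKI alone (mm9 chr8:86728467-86728625), is shown because these miRNAs are the nearest genes themselves. Mature sequences are from RefSeq (GRCm38.p6), with the seed, bases 2 to 8, in capitals, and the 4 seeds all differ. Mir23a was added after its value was seen. The miRNA genes Mir6350 (CML-TKI alone) and Mir7094-2 (CML alone) were also nearest genes of members and are not shown.
mmu-miR-3061-5p: cAGUGGGCcgugaaagguagcc
mmu-miR-3061-3p: cUACCUUUgauaguccacugcc
mmu-miR-23a-5p: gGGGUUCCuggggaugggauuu
mmu-miR-23a-3p: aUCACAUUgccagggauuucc

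The 10 loci of WT and CML-TKI without a CML peak comprised 6 LINEs and 4 SINEs. They were Mterf1b (L1MA9), Slco3a1 (L2c), Gm8096 (L1M5), BC005537 (Lx8), Gm6300 (L1_Mur3) and Zmynd11 (L1Md_T) among LINEs, and Lipt2 (B1F2), Tbc1d1 (B3A), Xlr (B3) and Gm12887 (RSINE1) among SINEs. Tbc1d1, a Rab GTPase-activating protein that AMPK and AKT phosphorylate, had a 143 bp peak with the same ends in both libraries in intron 2 of 19, 30.9 kb from the TSS. Lipt2, which attaches the lipoate precursor in mitochondria, had the member nearest to a TSS in CML-TKI, 1.27 kb upstream. Zmynd11 held the young L1 nearest to a TSS in WT, 69.1 kb upstream. Xlr and Gm12887 held the WT members of the B2 and B4 families nearest to a TSS, 23.2 and 430.9 kb upstream. The 3 loci of WT alone were at Atp6v1g3 (B3A), 1600025M17Rik (MusHAL1) and 4932411N23Rik (Lx4B), and none of them lay within 10 kb of a TSS.

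The 17 loci of CML and CML-TKI included Kctd20, where the B2-family member nearest to a TSS lay in intron 1, 1.87 kb from it in CML (179 bp) and 1.79 kb in CML-TKI (widest peak 243 bp). Rsrp1 had the B4 member nearest to a TSS in both libraries, a B4A peak of 281 bp with identical ends 3.17 kb upstream at mm9 chr4:134476233-134476514. Sp110, which encodes an interferon-induced nuclear body protein, had an Lx7 member in intron 4 of 12, 6.42 kb from the TSS, at 146 bp in CML and 204 bp in CML-TKI. An ID4_ peak of 442 bp lay 2.60 kb upstream of Eif4enif1 in CML-TKI, beside the B3 locus of the same gene. Among others chosen after their values were seen, an ID_B1 peak of 144 bp had the same ends in CML and CML-TKI, 5.59 kb from the TSS of Eef1a1, the translation elongation factor gene, and a B1_Mm peak of 183 bp lay in intron 2 of 14 of Itgb7, which encodes integrin beta 7 of lymphocyte homing, 6.26 kb from the TSS. The farthest locus of all, an L1Md_F2 peak of 341 bp, lay 1085 kb from Cntnap5a. The MIR members were a MIRb locus 73.6 to 73.7 kb upstream of Sp3, which encodes a GC-box transcription factor, at 143 bp in CML and 218 bp in CML-TKI. 

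Of the 37 loci of CML alone, the widest was a B2_Mm1a peak of 595 bp at mm9 chr9:65049050-65049645, 13.2 kb upstream of Parp16, an ADP-ribosyltransferase of the endoplasmic reticulum. It was the widest member of any library and the sole CML-only locus of 300 bp or more, as the CML-only loci had a median of 152 bp. A B3 peak of 158 bp at mm9 chr11:100698846-100699004 lay in intron 1 of 18 of Stat5b, 13.0 kb from the TSS. Stat5b encodes a STAT that cytokine receptors and BCR-ABL activate, and its peak had no counterpart in the deposited WT or CML-TKI list. The young L1 nearest to a TSS in CML was an L1_Mus2 peak 5.52 kb upstream of the pseudogene Ppp1r2-ps9. A B1_Mur4 peak of 140 bp at mm9 chr5:144308277-144308417, 1.23 kb upstream of Fam220a, was the nearest to a TSS among loci of CML alone and was chosen after its value was seen. Fam220a encodes a protein that binds STAT3 and represses it. An L1MA6 peak of 160 bp, also of CML alone and likewise chosen after its value was seen, lay 3.71 kb upstream of Ccl7, a monocyte chemokine gene.

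Of the 54 loci of CML-TKI alone, the nearest to a TSS was a B3 peak of 158 bp 2.19 kb upstream of Tmem194, a nuclear envelope protein gene, so none lay as close as the nearest CML-only locus. Chosen after their values were seen, a PB1D7 peak of 186 bp lay 2.22 kb upstream of Lin28a, whose protein blocks let-7 miRNA maturation, and a B3 peak of 244 bp lay 2.52 kb upstream of Nck1, an SH2 and SH3 adaptor of tyrosine kinase signalling. B3 peaks also lay 5.29 kb upstream of Vgll4 (158 bp), a cofactor of TEAD transcription factors, and in intron 2 of Chka (156 bp), a choline kinase gene. The widest were at Ccrn4l (390 bp, L1MD1 with a B4A peak beside it) and at Gm21119 (370 bp, Lx5). Gm20172 had the young L1 nearest to a TSS in CML-TKI, an L1Md_T peak 4.75 kb upstream, and Gm6300 the nearest rodent L1, at 5.52 kb in both WT and CML-TKI. Members of CML-TKI gathered in places: Gm21119 on chromosome 8 was named at 7 regions over 206.6 kb, and C130026I21Rik, Gm13152 and Gm13154 at 3 each. In CML-TKI 29 of 91 member regions (31.9%, 22.5 to 42.5) had another region under the rule within 10 kb, in WT 2 of 21 (9.52%) and in CML 7 of 61 (11.5%). That neighbouring region could have any annotation, and the neighbours were not counted by annotation. Over all regions under the rule these were 24.5%, 10.6% and 10.7%, so the rise in CML-TKI was shared by the whole list.

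By their medians, SINE peaks lay nearer to a TSS than LINE peaks in every library. The median distance to a TSS of WT, CML and CML-TKI peaks was 23.2, 8.15 and 13.0 kb for SINEs and 86.9, 71.5 and 71.5 kb for LINEs. All peaks outside LINEs and SINEs had medians of 21.7, 15.1 and 16.7 kb, which lay between SINEs and LINEs in CML and CML-TKI and just below the SINE median in WT. No member can be a promoter peak, so intronic and intergenic peaks outside LINEs and SINEs were added as a comparison after the data were seen, and their medians of 46.8, 29.7 and 32.9 kb lay between SINEs and LINEs in each library. The 95% interval of the median was 4.55 to 24.5 kb for SINEs and 26.0 to 162.1 kb for LINEs in CML, and 6.57 to 22.9 and 36.8 to 129.8 kb in CML-TKI, so these did not overlap, while in WT (4.55 to 30.9 and 5.52 to 442.7 kb) they did. The members together had medians of 26.1, 25.2 and 24.3 kb, nearly the same in all 3 libraries under this rule. With all chromosomes and genes these medians were 63287, 50051 and 42069 bp. Over loci, B1 was the nearest class with 3 or more loci (7.63 kb, 17 loci), followed by B2 (13.5 kb, 32 loci), B4 (25.7 kb, 6 loci), rodent L1 (55.5 kb, 28 loci), young L1 (68.4 kb, 33 loci) and old LINE (85.9 kb, 12 loci). Within 1 kb of a TSS were 1, 1 and 0 members (3.70%, 1.61% and 0%), against 2.20%, 5.39% and 3.28% of the intronic and intergenic peaks outside LINEs and SINEs. Over all peaks under the rule, which include promoter peaks, the shares were 19.3%, 22.8% and 22.2%.

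**Figure D5:**
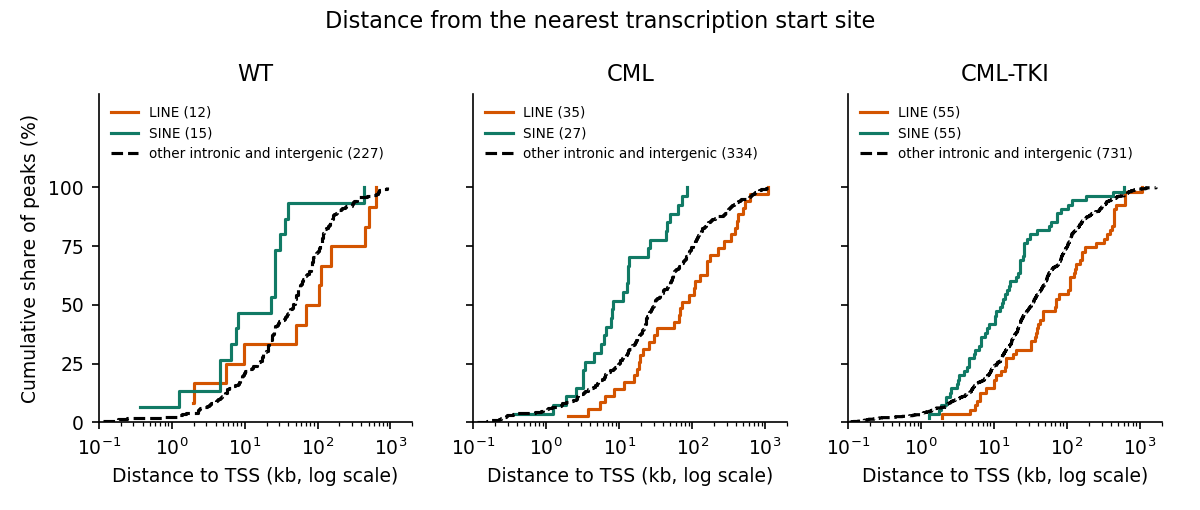
Cumulative share of peaks (y axis, percent) against distance to the nearest TSS (x axis, kb, log scale, distances under 0.1 kb drawn at 0.1) for LINE peaks, SINE peaks and other intronic or intergenic peaks in each library, with the number of peaks in brackets. The SINE curve lies mostly left of the LINE curve, with medians of 8.15 and 71.5 kb in CML and 13.0 and 71.5 kb in CML-TKI.

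Named genes were set beside 4 gene lists. Of 40 JAK-STAT and cytokine receptor genes, members named 1, Stat5b in CML, while all peaks under the rule named 6. Of 40 hematopoietic stem cell and leukemia regulators, members named 0 and all peaks 10, among them Kit and Runx1. Of 48 glycolysis and AMPK genes, members named 0 and all peaks 8, and of 30 genes that restrain retrotransposons, members named 0 and all peaks 2, Setdb1 and Sirt6 in CML-TKI. All peaks named 946 genes and the members 114, with 23 by WT members, 60 by CML members and 74 by CML-TKI members.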

How the data were processed

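The 4 ChIP-seq samples were WT, CML, CML-TKI and an IgG input, and the peak table analysed held WT, CML and CML-TKI. By the study's methods, reads were deduplicated, trimmed and aligned with bwa mem, which at default settings gives a read with several equal matches a single position, so peaks in near-identical repeats are less certain. Peaks were called with MACS2, HOMER, Genrich and SICER2, merged within 100 bp and annotated with HOMER. The processing notes name Partek 8.0, mm9 and mm10. Peak ends on 6 chromosomes run past the ends of the mm10 chromosomes in GRCm38, and mm9 is therefore stated without a check of mm9 lengths. The genome used here was GRCm38, so no peak sequence was read. The deposited values are positions and distances to the TSS in bp, per the file headers, with no count or score.

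Each Chrom/Start/End was counted once per library, which gave 217 members (29, 70 and 118). Entries with both ends rounded to 1 Mb were then joined to the full entry of the same accession and distance, or took the ends of another library (0, 3 and 3 members), which left 199. A member that took the ends of another library overlaps that library by construction. For 2, 0 and 2 members only the distance was known and a width of 200 bp was assumed. Overlap meant at least 1 bp. Shares have exact Clopper-Pearson intervals, and medians order-statistic intervals. Age classes follow repeat names. The members, lists and comparisons were chosen with earlier results of these data known.

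Named were members within 1 kb of a TSS, loci of all 3 libraries, the 3 widest members per library, the member nearest to a TSS per class and library, members on the 4 gene lists and subfamilies with at least 5 peaks in a library. Other names were chosen after their values were seen: the remaining WT and CML-TKI or WT-only loci, the clustered genes, Ccrn4l, Tmem194, Vgll4, Chka and those marked so. Of the 114 genes, 114 matched the GRCm38 RefSeq table, 8 of them under a newer symbol. Overlap and counting steps were tested on simulated data. Work was done in Python 3.11.15 with pandas 2.3.3, numpy 2.4.6, matplotlib 3.10.9 and scipy 1.17.1. Alternatives were all chromosomes and genes, a minimum width, merged regions, other overlap rules, handling of rounded ends, genes near a TSS and, added after seeing the data, exclusion of clustered genes and an intronic and intergenic comparator.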

Additional observations from a re-analysis of the deposited data

Results flagged for a closer look

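LINE and SINE peaks outside the rule were numerous. On chromosome Y or at the left-out genes, the table listed 97 WT, 46 CML and 151 CML-TKI distinct LINE or SINE peaks, for which there was no control list. Apart from the L1Md_F2 counts and the medians with all chromosomes and genes, no comparison above used these peaks. They stood out because there were more of them than members in WT (27) and CML-TKI (110), but not in CML (62). On chromosome Y were 51, 25 and 66 of them, the most frequent being L1Md_F2 peaks near Gm3376 (11, 6 and 17). At Sfi1 there were 21, 10 and 31, and at Vmn2r121 15, 8 and 36. How repeated copies of these loci share reads was not tested.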

How the results depend on the processing

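Each choice was changed on its own, giving 132 alternative values, of which 109 stayed close to the value above and 23 did not. With all chromosomes and genes, the members were 124 (WT), 108 (CML) and 261 (CML-TKI), and their shares 16.6%, 15.1% and 14.9%. The median distance was then 63287 bp (WT), 50051 bp (CML) and 42069 bp (CML-TKI). Of these medians only that of CML-TKI was classed as moved, since the WT and CML intervals are wide. With peaks of at least 200 bp, the members were 16, 15 and 42, young L1 in WT was 0%, and in CML the share was 8.57%, LINE 40%, B1 33.3%, overlap with WT 40%, overlap with CML-TKI 66.7% and no other library 33.3%. CML members under 200 bp were thus shared less often than the 15 wider ones. Sharing over all CML peaks of that width was not computed, so whether this is particular to LINE and SINE peaks was not tested. Genes named within 10 kb of a TSS were 9, 18 and 24. The median distance of the compared peaks outside LINEs and SINEs was 21748, 15136 and 16707 bp, and 46789, 29677 and 32936 bp when, as an alternative added after seeing the data, only intronic and intergenic ones were taken. Merged regions, other overlap rules, ends as written, rounded entries left out, the same subfamily and, added after seeing the data, removal of clustered genes moved 0 values. Ends as written and rounded entries left out were applied to the 3 member counts only, so sharing was not recomputed without rounded entries. No paired analysis was possible because there was 1 library a group, and no replicate could be left out. With 27 WT members, shares are known only within wide intervals, and depth is unknown.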

Other observations

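The deposited distances did not always follow the deposited ends. Among overlapping member peaks with full ends, the same nearest gene and different midpoints, 10 of 42 pairs (23.8%) had the same distance to the TSS. Over all peaks under the rule it was 113 of 620 (18.2%). At H2-D1 the WT peaks of 370 bp and 280 bp end at the same base and both have a distance of -4547 bp. Distances are therefore uncertain by the offset between such peaks.

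Of the 132 loci, 11 lay on chromosome X and 14 on chromosome 1, and the fewest were on chromosome 14, with 1. Of the 34 intronic loci, 27 lay in the gene that was also nearest by TSS. Exceptions, chosen after their values were seen, include Gtf2i, whose B2_Mm1a peak lay in intron 20 of Gtf2ird1, AA543401, whose L1Md_F3 peak lay in intron 4 of Dock3, and Tnfrsf23, whose B3 peak lay in intron 14 of Osbpl5.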
